A study of Mus musculus with 20 samples.

Results

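The Trim and Rnf genes, named for the tripartite motif and the RING finger, are RING-type ubiquitin ligase genes and their relatives, and they were taken here as every gene whose symbol in the array annotation is Trim or Rnf followed by a digit. Among 12393 genes that had a probe set of their own, 95 met this rule, 39 Trim and 56 Rnf genes, with 165 probe sets between them. A further 4 probe sets list a Trim gene together with another gene and were not used. Of the 95 genes, 69 lay above the lowest 40% of all genes by mean signal (24 Trim and 45 Rnf genes) and were tested, and 26 lay below that level. The choice used names and no measured value, although Trim35 and Rnf4 were already known from these arrays to be lower at high glucose, so their differences are restated here as the base for the rest of the families and not as independent findings.

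Ubiquitin is a small protein that marks other proteins for destruction by the proteasome or changes their location and partners. An activating enzyme (E1) passes it to a conjugating enzyme (E2), and a ligase (E3) brings the loaded E2 to the substrate; in the RING type the RING finger, a zinc-binding fold, holds the E2. Most Trim proteins, though not all, carry a RING finger, B-boxes and a coiled coil. The Trim family is known for antiviral defence, transcription and the cytoskeleton. Rnf genes share only the RING finger and include membrane ligases of the endoplasmic reticulum (ER), nuclear ligases and subunits of larger complexes. In beta cells, where insulin is folded in large amounts, ER-associated degradation by such ligases is a known part of protein quality control.

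RNA was measured on 20 single-colour Affymetrix arrays from MIN6, a line of insulin-secreting mouse beta cells. Of these, 10 arrays came from cells grown at 22.7 mM glucose and 10 from cells grown at 5.5 mM glucose. At each glucose level 9 arrays came from cells exposed to human amylin, the beta cell hormone that forms amyloid in human islets, at 1, 10 or 20 µM for 2, 12 or 24 h, and 1 array came from cells left untreated. Each of the 20 conditions was arrayed once, no label says that cultures were separate, and 1 cell line was used, so p-values measure the spread between these arrays.

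Values are on the log2 scale, where a difference of 1 is a 2-fold change, and each probe set is compared only with itself across arrays, because signals of different probe sets are not comparable levels. Where a gene had several probe sets, the one with the highest mean stood for it. The glucose difference was fitted over 10 pairs of arrays matched for amylin dose and time, and a gene was called where its adjusted p (limma, Benjamini-Hochberg over the 7436 genes tested) was under 0.05. In a measurement of bulk RNA, fewer cells expressing a gene and less RNA per cell cannot be told apart.

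All 9 beta cell markers on the array lay above the filter, Ins2, Iapp and Pdx1 among them, as did 3 of 10 fibroblast, 1 of 8 immune and endothelial, 1 of 3 acinar and 2 of 3 other islet hormone markers (Gcg and Sst). Sst, the hormone of delta cells, averaged 7.28 at 22.7 mM and 7.92 at 5.5 mM, and Ppy, the pancreatic polypeptide, which lay below the filter, averaged 6.20 and 6.63; the part of these cell type markers in the glucose results was not tested. The difference between the 3′ and 5′ actin probe sets, a quality measure that grows as RNA is shortened, was higher at 22.7 mM than at 5.5 mM glucose in 10 of 10 pairs, with medians of 1.79 and 1.21. Fits with this difference as a covariate (the actin covariate) are given beside the called Trim and Rnf genes and some others. No scanner description was given for 2 arrays, and both stood apart: the 12 h array of 1 µM amylin at 22.7 mM glucose, and the 24 h array of 10 µM amylin at 5.5 mM glucose. Their array medians were 7.25 and 7.28, the highest of all 20, and their mean correlations with the other arrays were 0.970 and 0.960, against 0.985 to 0.990 for the other 18 arrays. Their summed fibroblast marker signals were 1494 and 1628, against 919 to 1206 on the other 18, and their summed immune and endothelial signals were 891 and 1032, against 619 to 787. Their summed acinar signals were 503 and 463, against 306 to 400.

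Promoter letters are shown for 3 of the 4 genes called below. RefSeq windows on GRCm38.p6 matched 78 of the 95 genes, and the 250 bases before the start were read from each of their 108 windows, 5′ to 3′ on the gene's strand. Capitals mark the searched motifs GGGCGG (the GC box), CACGTG (an E-box), TGACGTCA (the cyclic AMP response element) and a short form of the interferon-stimulated response element (GAAA, 2 bases of any kind, GAAA), each read on both strands with overlapping matches counted. Rnf130 lies at chr11:50025081-50025330, plus strand. Rnf4 lies at chr5:34336000-34336249, plus strand, the first of 3 windows listed for it. Rnf7 lies at chr9:96478676-96478925, minus strand.
Rnf130: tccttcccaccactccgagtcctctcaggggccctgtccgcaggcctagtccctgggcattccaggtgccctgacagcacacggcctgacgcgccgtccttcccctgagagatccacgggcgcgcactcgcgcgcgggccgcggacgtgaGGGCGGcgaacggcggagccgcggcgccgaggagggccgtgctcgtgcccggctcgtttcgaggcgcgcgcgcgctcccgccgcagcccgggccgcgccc
Rnf4: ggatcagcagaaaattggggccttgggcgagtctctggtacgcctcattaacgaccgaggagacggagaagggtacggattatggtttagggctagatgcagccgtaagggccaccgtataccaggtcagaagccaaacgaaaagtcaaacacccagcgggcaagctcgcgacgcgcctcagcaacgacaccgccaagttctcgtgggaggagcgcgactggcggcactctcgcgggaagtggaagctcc
Rnf7: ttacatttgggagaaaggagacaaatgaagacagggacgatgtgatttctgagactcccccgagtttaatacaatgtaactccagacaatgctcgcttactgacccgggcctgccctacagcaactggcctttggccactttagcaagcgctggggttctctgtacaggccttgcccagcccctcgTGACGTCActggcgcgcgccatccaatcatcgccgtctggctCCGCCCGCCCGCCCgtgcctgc
The Rnf130 window held 1 GC box and none of the other motifs. The Rnf7 window held 3 GC boxes and 1 cyclic AMP response element, and the Rnf4 window shown held none of the 4 motifs, whereas another of its 3 windows, chr5:34336682-34336931, held 2 GC boxes. Over all windows of the families, GGGCGG was found in 52.8% of 108 windows, against 32.7% of the 32851 windows of all genes. CACGTG was found in 5.56% against 6.02%, TGACGTCA in 1.85% against 1.55%, and the short interferon element in 4.63% against 2.98%. The E-box genes were Rnf145, Rnf166, Rnf44, Trim25, Trim39 and Trim46, and the genes with the short interferon element were Rnf121, Rnf146, Trim26, Trim30a and Trim30d. A match is a run of letters and not a shown binding site.

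Across the 69 tested genes the glucose level moved few. Trim35, Rnf4 and Rnf7 fell and Rnf130 rose at 22.7 mM relative to 5.5 mM glucose, which makes 4 called genes of 69, or 5.80%, against 5.49% of all 7436 genes. This share is near the background, and it counts Trim35 and Rnf4, which were known falls beforehand. Among the other genes of the families only Rnf7 (lower) and Rnf130 (higher) were called. By direction, 1 of 69 was called higher, against 3.63% of all genes, and 3 of 69 lower, against 1.86%. At an unadjusted p under 0.05 there were 13 of 69 (9 higher and 4 lower), or 18.8%, against 22.6% of all genes (16.3% higher and 6.32% lower). The median difference of the 69 genes was 0.03, and that of all genes 0.04.

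**Figure D1:**
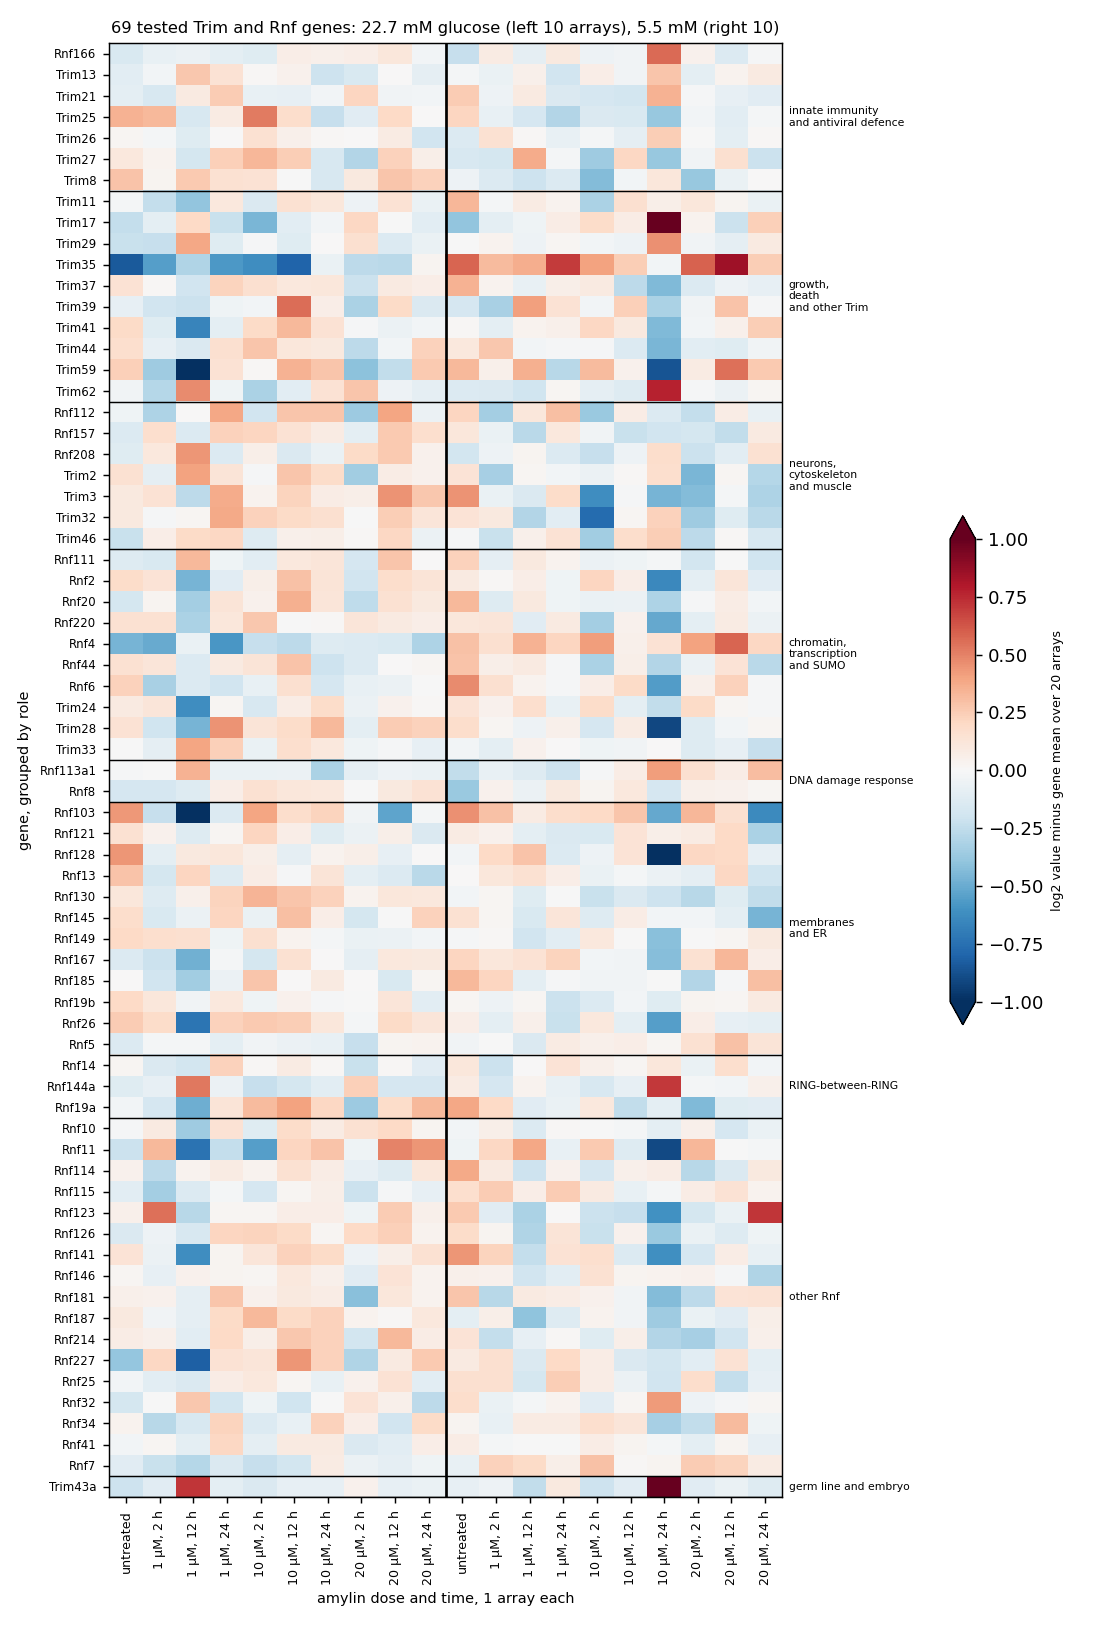
Deviation of each of the 69 tested Trim and Rnf genes (rows, grouped by role) from its own mean over 20 arrays, on the log2 scale, with the 10 arrays of 22.7 mM glucose left of the black line and the 10 of 5.5 mM right of it. Colours stop at 1 in either direction. Trim35 and Rnf4 are blue on the left and red on the right, and 2 columns, 1 µM for 12 h on the left and 10 µM for 24 h on the right, differ from their neighbours in many rows.

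Trim35, a ligase first studied in blood cell differentiation, had 6.64 as its lowest, 7.05 as its median and 7.50 as its highest value at 22.7 mM, against 7.45, 7.86 and 8.32 at 5.5 mM. The groups overlapped by a few hundredths only, and the 22.7 mM array was lower in 10 of 10 pairs. The mean was 7.05 ± 0.29 at 22.7 mM and 7.90 ± 0.26 at 5.5 mM (SD, n = 10 each), a log2 difference of -0.85 (SE 0.12, limma adjusted p = 0.00271), or 1.80-fold lower. The mean at 22.7 mM lay below the filter level of 7.08, so the gene passed the filter through its 5.5 mM arrays. In a fit without the filter the limma adjusted p was 0.00274. Pair differences ran from -1.42 in untreated cells to -0.04 at 10 µM for 24 h, the pair that holds the 5.5 mM array without a scanner description.

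Rnf4, the SUMO-targeted ubiquitin ligase that recognises chains of the small modifier SUMO, had 7.79, 8.13 and 8.31 as lowest, median and highest value at 22.7 mM, against 8.42, 8.63 and 8.96 at 5.5 mM. Every array of 22.7 mM lay below every array of 5.5 mM, which was so for 9 of the 7436 genes tested, or 0.121%. The difference was -0.57 (SE 0.07, limma adjusted p = 0.00107), or 1.48-fold lower. Pair differences ran from -0.80 to -0.28.

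Rnf7, the RING subunit (Rbx2) of cullin ligases, had 9.98, 10.13 and 10.34 as lowest, median and highest value at 22.7 mM, against 10.19, 10.40 and 10.56 at 5.5 mM. The groups overlapped, with 9 of 10 pairs lower, and the difference was -0.26 (SE 0.07, limma adjusted p = 0.0410). Rnf130, a membrane ligase of the Goliath family, had 10.16, 10.40 and 10.63 at 22.7 mM, against 10.01, 10.15 and 10.31 at 5.5 mM. It was higher in 9 of 10 pairs by 0.27 (SE 0.07, limma adjusted p = 0.0384), and the pair of 1 µM for 2 h ran the other way by -0.15.

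**Figure D2:**
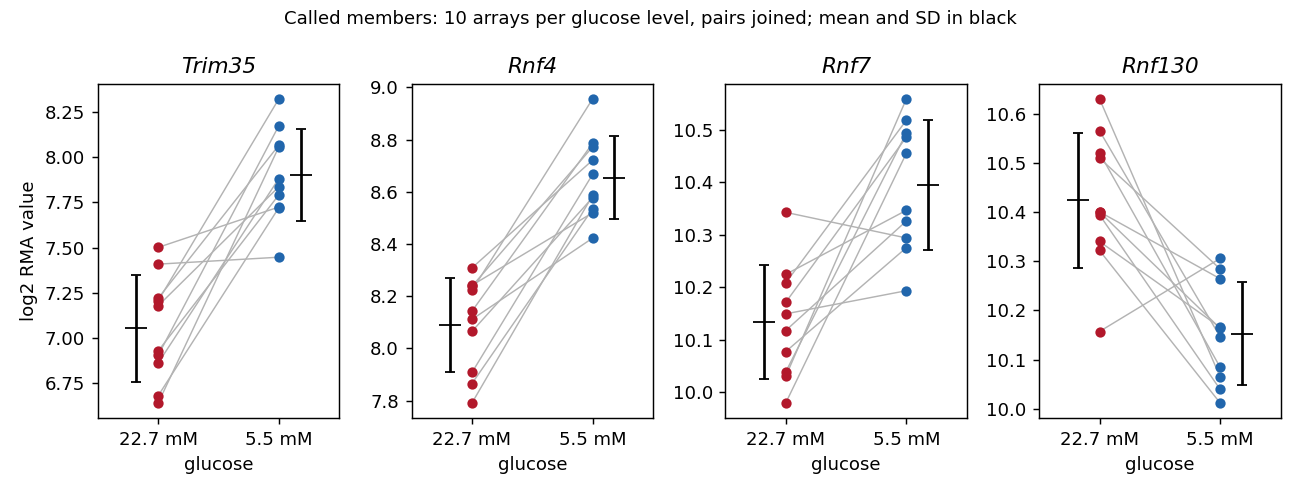
Log2 values of Trim35, Rnf4, Rnf7 and Rnf130 in the 10 arrays of 22.7 mM glucose (red, left) and the 10 of 5.5 mM (blue, right), with grey lines joining arrays of the same amylin condition and black bars giving mean and SD. Rnf4 shows a gap between 8.31 and 8.42, and each of the other genes overlaps between the levels.

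These calls did not rest equally on the arrays. Leaving out either array of a pair leaves its partner without a match, so the fits with an array left out amount to 10, 1 per pair. Rnf4 and Trim35 stayed called in all 10, and in 6 of them no other Trim or Rnf gene was called. Leaving out both arrays without a scanner description gave -0.98 for Trim35, -0.62 for Rnf4, -0.27 for Rnf7 and 0.26 for Rnf130, all called, among 9 called Trim and Rnf genes. That fit called 743 of all 7436 genes, against 408 in the main fit. Within scan day 3, the day with 4 arrays of 22.7 mM and 3 of 5.5 mM, the differences of means were -1.09 for Trim35, -0.73 for Rnf4, -0.29 for Rnf7 and 0.31 for Rnf130. Within day 4 (4 and 2 arrays) they were -0.83, -0.53, -0.24 and 0.30 in the same order of genes. Within day 2 (1 and 3 arrays) they were -0.75, -0.42, -0.19 and 0.13, and day 1 held a single array. With the actin signal as a covariate none of the 7436 genes was called by limma (6 of the 69 had an unadjusted p under 0.05). The differences were then -0.44 for Trim35 (SE 0.17, adjusted p = 0.352), -0.36 for Rnf4 (SE 0.10, adjusted p = 0.276), -0.15 for Rnf7 (adjusted p = 0.655) and 0.32 for Rnf130 (SE 0.13, adjusted p = 0.371).

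**Figure D3:**
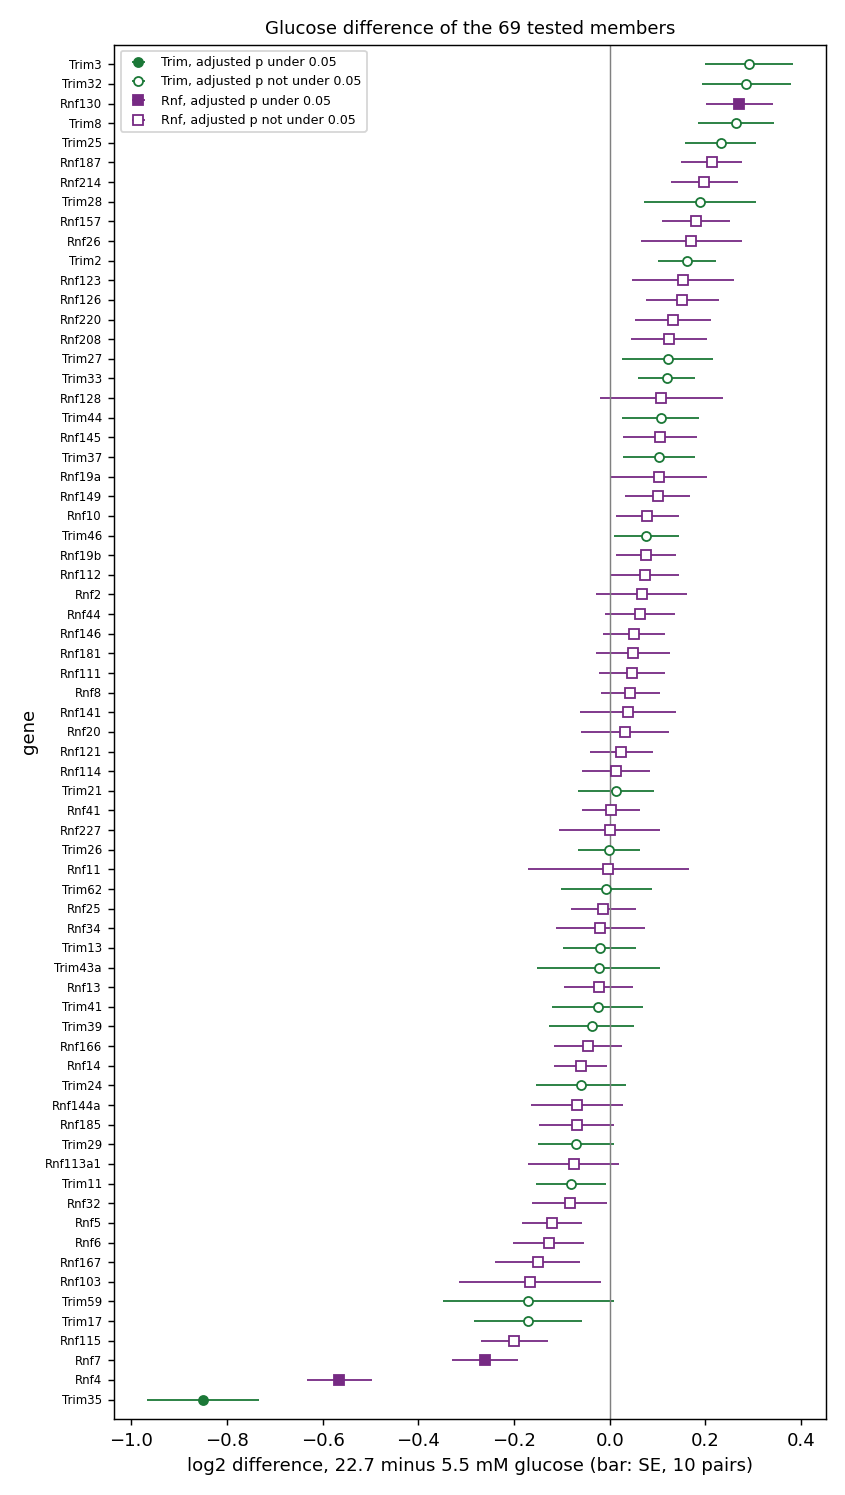
Log2 difference, 22.7 minus 5.5 mM glucose, of each of the 69 tested genes with its SE over 10 pairs, sorted from highest to lowest; circles are Trim and squares Rnf genes, and filled symbols are the 4 called genes. Trim35 at -0.85 and Rnf4 at -0.57 stand below the rest, which run from -0.26 to 0.29.

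Among ligases of neurons, the cytoskeleton and muscle, the role group with 7 tested genes, all 7 differences were positive (0.07 to 0.29, median 0.16) and none was called; of all 7436 genes 61.3% were positive. Trim3, a brain-enriched ligase with an NHL domain, averaged 8.78 ± 0.20 at 22.7 mM and 8.48 ± 0.32 at 5.5 mM (SD, n = 10 each), a difference of 0.29 (SE 0.09, limma adjusted p = 0.0747). Trim32, whose human gene is mutated in a limb-girdle muscular dystrophy, averaged 8.06 and 7.77, a difference of 0.29 (SE 0.09, limma adjusted p = 0.0836). Its pair differences spread from -0.11 to 1.00, the widest at 10 µM for 2 h. Trim2, a ligase of neurofilament light chain, was higher at 22.7 mM in 10 of 10 pairs, which 2.65% of all genes were in one direction or the other, by 0.16 (limma adjusted p = 0.127). These values are those of the brightest probe set of each gene. The second probe set above the filter gave 0.02 for Trim2 (4 of 10 pairs higher), -0.05 for Rnf112 (5 of 10) and 0.09 for Rnf157 (6 of 10). The remaining tested genes of the group were Trim46, an organiser of axonal microtubules, Rnf112, a RING protein with a GTPase domain that is abundant in brain, Rnf157 and Rnf208. With the actin covariate Trim3 gave 0.36 and Trim32 0.10. Leaving out the 2 arrays without a scanner description, Trim3 (0.31, adjusted p = 0.0459) and Trim32 (0.33, adjusted p = 0.0429) passed.

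Of 15 genes of innate immunity and antiviral defence, 7 were tested and none was called; 4 differences were positive and 3 negative. Trim8, a regulator of cytokine signalling, had 7.29, 7.61 and 7.74 as lowest, median and highest value at 22.7 mM, against 7.02, 7.35 and 7.57 at 5.5 mM. It was higher in 9 of 10 pairs by 0.26 (SE 0.08, limma adjusted p = 0.0640). Trim25, the ligase that activates the viral RNA sensor RIG-I, had 8.38, 8.73 and 9.13 at 22.7 mM, against 8.23, 8.48 and 8.82 at 5.5 mM, a difference of 0.23 (SE 0.07, limma adjusted p = 0.0761). With the actin covariate these became 0.07 for Trim8 and 0.03 for Trim25. Leaving out the 2 arrays without a scanner description, both were called, among 9 called Trim and Rnf genes. The second probe set above the filter gave -0.23 for Trim8 (0 of 10 pairs higher) and 0.15 for Trim25 (5 of 10). The 8 others of the group, among them the interferon-induced Trim30a, Trim30d, Trim34a and Trim12a, lay below the filter.

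The 10 tested Trim genes of growth, death and other roles had 2 positive and 8 negative differences, with a median of -0.05 and Trim35 as the called one. Trim17, a ligase linked to neuronal apoptosis, averaged 7.30 ± 0.20 at 22.7 mM and 7.47 ± 0.37 at 5.5 mM, a difference of -0.17 (limma adjusted p = 0.396). Trim59, a Trim protein with a membrane anchor, averaged 7.57 ± 0.46 and 7.74 ± 0.40, also -0.17 (SE 0.18, limma adjusted p = 0.623). Both had their most extreme value on an array without a scanner description, Trim17 at 8.38 (5.5 mM) and Trim59 at 6.53 (22.7 mM).

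All 10 genes of chromatin, transcription and SUMO were tested; Rnf4 was called and 7 differences were positive, from 0.03 to 0.19. They include Rnf2, the catalytic subunit of Polycomb repressive complex 1, Rnf20, the ligase of histone H2B, Rnf111 (Arkadia) and the transcription cofactors Trim24, Trim28 and Trim33. The 2 tested genes of the DNA damage response, Rnf8 and Rnf113a1, differed by 0.04 and -0.08.

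Of 16 membrane and ER ligases, 12 were tested and Rnf130 was called; 7 differences were positive and 5 negative. Rnf103 (Kf-1), an ER ligase, averaged 7.69 ± 0.46 at 22.7 mM and 7.86 ± 0.36 at 5.5 mM, a difference of -0.17 (limma adjusted p = 0.545). Rnf167, a ligase of endosomes and lysosomes, averaged 9.88 and 10.03, a difference of -0.15 (limma adjusted p = 0.331). The ER-associated degradation ligases Rnf5 and Rnf185 were not called.

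The 17 tested genes without one of these roles held Rnf7 and 10 positive differences. Rnf187, a coactivator of the transcription factor Jun, had 11.54, 11.73 and 11.95 as lowest, median and highest value at 22.7 mM, against 11.22, 11.55 and 11.69 at 5.5 mM, a difference of 0.21 (SE 0.06, limma adjusted p = 0.0640). Rnf115, a ligase linked to vesicle traffic, had 8.62, 8.87 and 9.02 at 22.7 mM, against 8.89, 9.04 and 9.22 at 5.5 mM, a difference of -0.20 (SE 0.07, limma adjusted p = 0.102). Of 4 genes grouped as RING-between-RING ligases, which pass ubiquitin through a cysteine of their own, 3 were tested and none was called. The group does not hold every ligase of that type, since Rnf19b was counted with the membrane and ER ligases. The 3 germ line and embryo genes gave 1 tested gene, Trim43a, at -0.02.

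The 26 genes below the filter had means of 4.52 to 7.04 and differences between glucose levels of -0.09 to 0.15, given without a test. They were 15 Trim genes (Trim6, Trim7, Trim10, Trim12a, Trim15, Trim16, Trim23, Trim30a, Trim30d, Trim31, Trim34a, Trim47, Trim54, Trim60 and Trim69) and 11 Rnf genes (Rnf17, Rnf43, Rnf135, Rnf138, Rnf138rt1, Rnf144b, Rnf151, Rnf183, Rnf186, Rnf207 and Rnf225). At the edge, Trim60 at 7.04 lay just below the level of 7.08, and Trim21 at 7.24 was the lowest tested gene of the families.

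Probe sets of the same gene did not always move together. Of 95 genes, 52 had 1 probe set and 43 several; 24 had at least 2 above the filter, and in 10 of these the glucose differences of the probe sets lay over 0.3 apart. Fitted one by one, 8 of 101 probe sets of the families above the filter were called, or 7.92%, against 8.36% of 10552 single-gene probe sets. Of the 8, 1 was higher, against 3.77% of all, and 7 lower, against 4.59%. They were the 4 probe sets already described and 4 that do not represent their gene because another probe set was brighter.

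Rnf14, a RING-between-RING ligase known as a coactivator of the androgen receptor, showed the widest split. Its brightest probe set had 10.88, 11.11 and 11.33 as lowest, median and highest value at 22.7 mM, against 10.88, 11.13 and 11.27 at 5.5 mM, a difference of -0.06. Its next brightest probe set had 6.90, 7.63 and 8.03 at 22.7 mM, against 7.97, 8.30 and 8.76 at 5.5 mM. It fell by 0.83 on the log2 scale (SE 0.11, limma adjusted p = 0.00235) with 9 of 10 pairs lower. Another probe set above the filter differed by 0.04, and one below the filter by -1.36.

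Rnf13, an endosomal ligase, Rnf114 and Rnf121 gave the same contrast between their probe sets. The second probe set of Rnf13 was lower by -0.41 (limma adjusted p = 0.0183), against -0.02 for the brighter one. For Rnf114 one of 3 further probe sets was lower by -0.54 (limma adjusted p = 0.0279), against 0.01 for the brightest, and for Rnf121 the second was lower by -0.30 (limma adjusted p = 0.0261), against 0.02. With the actin covariate the 4 lower probe sets gave -0.39 for Rnf14, -0.06 for Rnf13, -0.07 for Rnf114 and -0.20 for Rnf121, none of them called.

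Second probe sets did not carry the falls of Rnf4 and Rnf7. For Rnf4 the second probe set differed by -0.02 (SE 0.13) with 5 of 10 pairs higher, and for Rnf7 by 0.07 with 8 of 10 pairs higher. Trim35 and Rnf130 have 1 probe set each, so no such comparison exists. The probe sets of Trim8 ran in opposite directions, 0.26 for the one used and -0.23 for the second, which was lower in 10 of 10 pairs (limma adjusted p = 0.0561). For Rnf115 they gave -0.20 and 0.17, for Rnf227 0.00 and -0.45, and for Trim37, a ligase of centriole control, 0.10 for the brightest and -0.23, -0.11 and 0.03 for the others. Which transcripts each probe set reads was not analysed here.

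**Figure D4:**
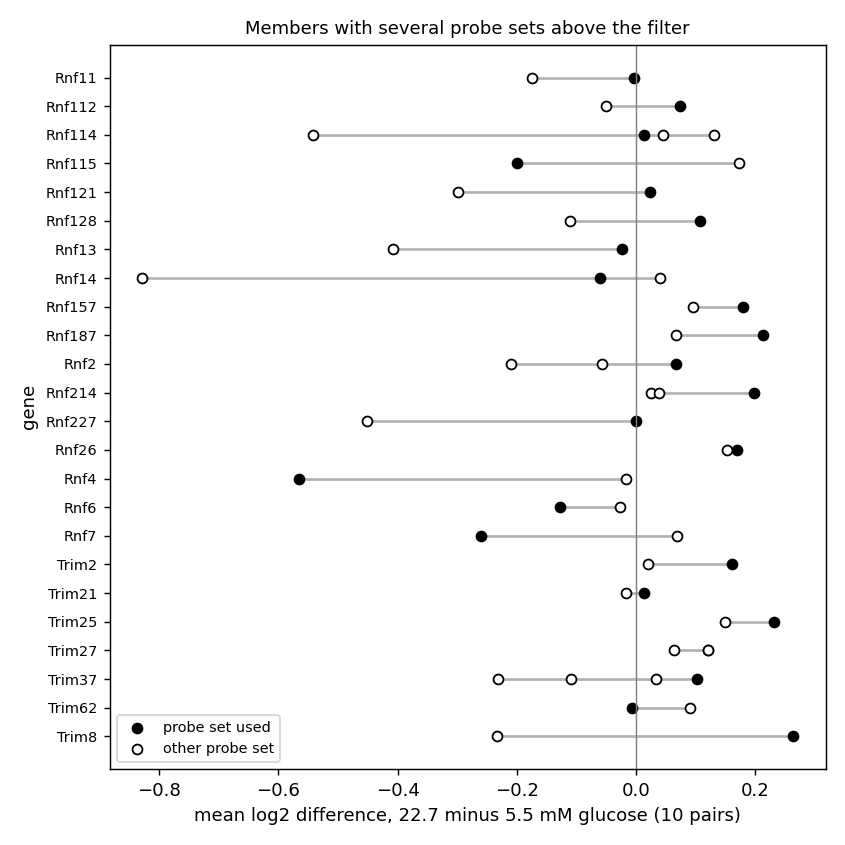
Mean log2 difference, 22.7 minus 5.5 mM glucose, of every probe set above the filter for the 24 genes with at least 2 of them; black dots are the probe sets used and white dots the others, joined by a grey line per gene. Rnf14 spans -0.83 to 0.04, and the white dots of Rnf4 and Rnf7 lie near 0.

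Amylin was compared with no treatment over 9 treated arrays and 1 untreated array per glucose level. None of the 69 genes was called, and none of all 7436 genes (0%). At an unadjusted p under 0.05 there were 4 of 69, 1 higher and 3 lower, against 5.63% of all genes by limma (1.28% higher and 4.36% lower). Rnf6, a nuclear ligase, ranged at 22.7 mM from 8.11 to 8.59 with amylin (median 8.36), against 8.66 untreated. At 5.5 mM it ranged from 7.88 to 8.67 (median 8.49), against 8.91 untreated. The untreated array was thus above every treated array at both levels, with a difference of -0.39 (SE 0.12, limma adjusted p = 0.776). How many of all genes separate in this way was not counted, and 4832 of all 7436 differences were negative.

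Rnf8, the ligase that marks chromatin at DNA double-strand breaks, ranged from 8.36 to 8.68 with amylin at 22.7 mM, against 8.36 untreated, and from 8.36 to 8.63 at 5.5 mM, against 8.15 untreated. Its difference was 0.30 (SE 0.10, limma adjusted p = 0.776). Trim25 differed by -0.31 and Trim37 by -0.27, both lower in both glucose levels. Trim17 differed by 0.35 and Rnf166 by 0.21, both higher in both levels. For all 6 of these genes the limma adjusted p was 0.776, and the 2 untreated arrays alone set the comparison.

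Time of exposure was compared over 6 matched pairs, 3 doses at 2 glucose levels. Most arrays of 2 h were run with a different fluidics protocol from most described arrays of 24 h, and scan days were uneven across times. Time and these batches were thus partly mixed. Fits with scan day or fluidics protocol as a block are given below. Between 24 and 2 h, and between 12 and 2 h, none of the 69 genes was called, against 0.0538% and 0.108% of all genes. The genes behind the share between 12 and 2 h were 0.0403% higher and 0.0672% lower, and those between 24 and 2 h were all lower. At an unadjusted p under 0.05, limma gave 4 higher and 1 lower between 24 and 2 h, and 5 higher and none lower between 12 and 2 h; the shares over all genes were 8.66% (3.7% higher and 4.96% lower) and 9.31% (6.04% higher and 3.27% lower).

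Rnf112 showed the smallest p-values of the families in both. At 22.7 mM it had 7.69, 7.80 and 7.64 at 2 h for 1, 10 and 20 µM, then 8.0007, 8.28 and 8.39 at 12 h and 8.38, 8.27 and 7.94 at 24 h, against 7.95 untreated. At 5.5 mM it had 7.65, 7.63 and 7.76 at 2 h, then 8.12, 8.07 and 8.08 at 12 h and 8.30, 7.86 and 7.92 at 24 h, against 8.22 untreated. All 6 arrays of 2 h lay below all 12 arrays of 12 and 24 h and below both untreated arrays. The difference was 0.42 between 24 and 2 h (SE 0.09, limma adjusted p = 0.109) and 0.46 between 12 and 2 h (SE 0.09, limma adjusted p = 0.0635), each higher in 6 of 6 pairs. How many of all genes separate in this way was not counted. Nor was the share of all genes with the same sign in 6 of 6 pairs of time or dose counted. The second Rnf112 probe set above the filter gave smaller differences, 0.12 between 24 and 2 h and 0.09 between 12 and 2 h.

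Trim2 also had its lower values at 2 h. At 22.7 mM it averaged 7.89, 8.29 and 8.16 at 2, 12 and 24 h, with 8.20 untreated, and at 5.5 mM 7.76, 8.06 and 7.99, with 8.18 untreated (n = 3 each for the treated). The difference was 0.25 between 24 and 2 h (limma adjusted p = 0.326) and 0.35 between 12 and 2 h (limma adjusted p = 0.0920), each higher in 6 of 6 pairs. The second Trim2 probe set above the filter gave 0.03 and 0.13 in the same comparisons. Trim46 differed by 0.22 between 24 and 2 h, higher in 5 of 6 pairs, and by 0.26 between 12 and 2 h, higher in 6 of 6. Trim39, a ligase that stabilises the apoptosis modulator Moap1, differed by 0.40 between 12 and 2 h (limma adjusted p = 0.216), higher in 5 of 6 pairs.

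**Figure D5:**
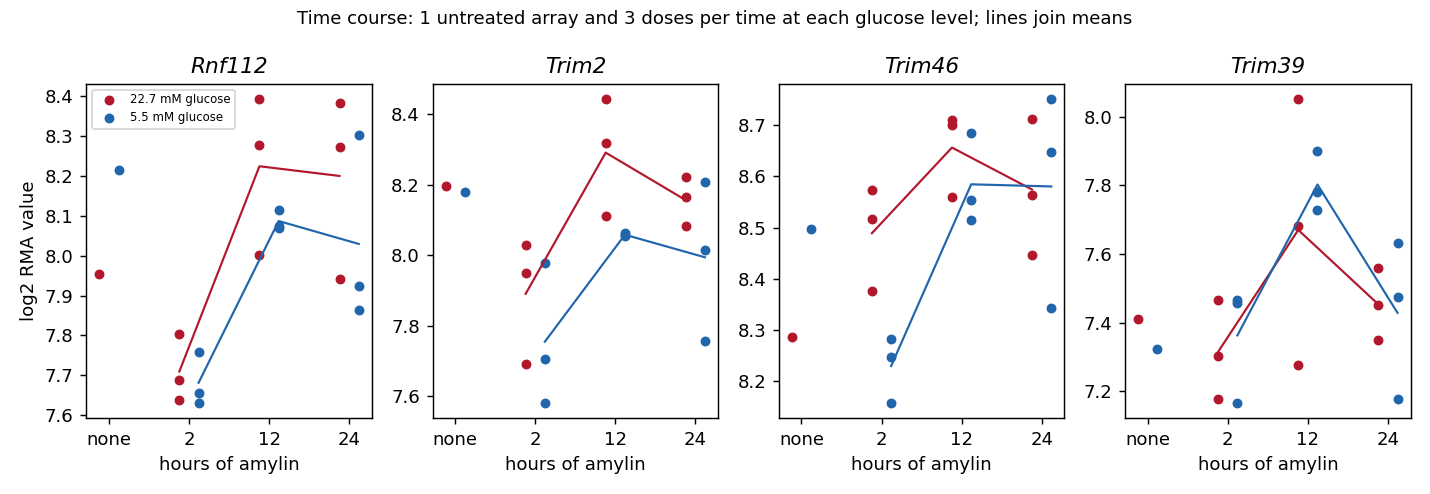
Log2 values of Rnf112, Trim2, Trim46 and Trim39 without amylin and after 2, 12 and 24 h of it, at 22.7 mM glucose (red) and 5.5 mM (blue), 1 point per array and lines joining the means of 3 doses. For Rnf112 the 6 arrays of 2 h, 7.63 to 7.80, lie below all others.

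The group of neurons, the cytoskeleton and muscle, which holds Rnf112, Trim2 and Trim46, had 7 of 7 positive differences between 24 and 2 h (median 0.22) and 6 of 7 between 12 and 2 h (median 0.19). Of all 7436 genes, 3816 differences were positive between 24 and 2 h and 4136 between 12 and 2 h, with medians of 0.00 and 0.02. Between 20 and 1 µM the group had 1 positive and 6 negative differences (median -0.07). Its signs were not counted with scan day or fluidics protocol as a block. On the side of lower values, Rnf128 (GRAIL), a membrane ligase of T cell anergy, differed by -0.28 between 24 and 2 h, Trim25 by -0.22 and Rnf149 by -0.15. Rnf103 differed by -0.31, Rnf25 by -0.15 and Rnf187 by -0.13 between 12 and 2 h, and Rnf187 was lower in 6 of 6 pairs. The limma adjusted p-values of these 6 genes ran from 0.545 to 0.707.

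Some of these values moved with the arrays used. Without the 2 arrays lacking a scanner description, Rnf112 passed in both (0.48, adjusted p = 0.0274, and 0.49, adjusted p = 0.0209), Trim39 passed between 12 and 2 h (0.50, adjusted p = 0.0209), and Rnf128 gave -0.06 between 24 and 2 h. With scan day as a block Rnf112 gave 0.56 (adjusted p = 0.0991) and 0.60 (adjusted p = 0.0487). With the actin covariate it gave 0.39 and 0.46 (adjusted p = 0.405 and 0.0791).

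Dose was compared between 20 and 1 µM over 6 pairs. None of the 69 genes was called, and none of all genes (0%); 2 of 69 had an unadjusted p under 0.05 by limma, both lower, against 2.37% of all genes (1.2% higher and 1.17% lower). Trim33, a transcription cofactor of the Smad pathway, differed by -0.18, Trim2 by -0.18 and Rnf13 by -0.14. Trim35 differed by 0.20, Trim41 by 0.18 (higher in 6 of 6 pairs) and Rnf4 by 0.17. The limma adjusted p was 0.998 for all 6.

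Whether the effects of time and dose differ between the glucose levels was tested as an interaction, and none of the 69 genes and none of all 7436 genes was called (0% for both). At an unadjusted p under 0.05, limma gave 6 of 69 for time (5 higher and 1 lower), against 10.7% of all genes (7.28% higher and 3.47% lower). For dose it gave 1 of 69, a lower one, against 4.55% (3% higher and 1.55% lower). For 24 against 2 h, Trim59 changed by 0.48 at 22.7 mM and -0.45 at 5.5 mM, an interaction of 0.93 (SE 0.34, limma adjusted p = 0.447). Rnf128 changed by 0.05 at 22.7 mM and -0.61 at 5.5 mM, an interaction of 0.66, and Rnf103 by -0.02 and -0.60, an interaction of 0.58. Without the 2 arrays lacking a scanner description, these 3 became 0.67, 0.33 and 0.48. On the other side, Rnf32 gave -0.41, Rnf208 -0.40 and Trim8 -0.32. For 20 against 1 µM, Rnf103 gave 0.53, Rnf19a (Dorfin) 0.46 and Trim3 0.42, whereas Rnf113a1 gave -0.48, Trim13 -0.28 and Rnf149 -0.28 (limma adjusted p = 0.927 for all 6).

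Other genes of the ubiquitin and SUMO pathways were set against the same background for glucose, 5.49% of all genes called and 61.3% positive. Of 37 tested genes of other RING-type ligases, 1 was called: Rchy1 (Pirh2), a ligase of p53, fell to 9.42 ± 0.08 at 22.7 mM, against 9.76 ± 0.14 at 5.5 mM (SD, n = 10 each; -0.34, limma adjusted p = 0.0124), lower in 10 of 10 pairs. Of 25 tested genes from a list of E1 and E2 enzymes, 2 were called. All of those tested were E2 enzymes or E2 variants, and no E1 gene was tested. The E2 Cdc34, partner of cullin ligases, rose by 0.22 (limma adjusted p = 0.0482), higher in 10 of 10 pairs. The E2 Ube2w, which modifies the N-terminus of proteins, fell by 0.44 on the log2 scale (limma adjusted p = 0.0142).

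In the SUMO pathway, whose chains Rnf4 reads, 1 of 11 tested genes was called, against 5.49% of all genes. Senp6, the protease that trims SUMO chains, averaged 8.12 ± 0.15 at 22.7 mM and 8.48 ± 0.15 at 5.5 mM (SD, n = 10 each) and fell by 0.36 on the log2 scale (limma adjusted p = 0.0131), lower in 10 of 10 pairs. Over the pathway 4 differences were positive and 7 negative, with a median of -0.03. In Polycomb repressive complex 1, which holds Rnf2, 1 of 10 tested genes was called: Yaf2 rose by 0.31 (limma adjusted p = 0.0260), and 9 of 10 differences were positive with a median of 0.14, against 61.3% positive and a median of 0.04 over all genes. Of 7 tested genes of interferon and RIG-I signalling, the setting of Trim25, none was called, and 5 differences were positive with a median of 0.19. These lists were chosen with results of these arrays known. With the actin covariate none of all 7436 genes was called, so no call of a pathway gene held in that fit. Other probe sets of the called pathway genes were not compared.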

How the data were processed

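The deposited values are log2 expression values, 1 per probe set and array, that the authors made with RMA in affy 1.12.2 under R 2.4.0, per the submitters' processing notes. Whether all arrays shared 1 RMA run is not given in the sources used here. Scanner descriptions of 18 arrays were read for scan day (coded 1 to 4) and fluidics protocol. The first protocol was run on 4 arrays of 22.7 mM and 7 of 5.5 mM glucose, and the second on 5 and 2. Of 22690 probe sets, 20380 with exactly 1 gene in the platform annotation were used (691 list several genes, 64 are controls). Each gene took its probe set of highest mean, and the lowest 40% of genes by mean (below 7.08) were left out. limma 3.58.1 in R 4.3.3 (lmFit, eBayes with trend) fitted glucose plus a factor of the 10 amylin conditions (9 residual degrees of freedom), and, for interactions, a model with 8, with Benjamini-Hochberg adjustment over 7436 genes at 0.05. Precision is limited by how many arrays there are. The fits were run on simulated data with independent noise and no added stray arrays, batches or RNA quality difference. That run cannot show how such features act on the calls.

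The genes, role groups and lists were chosen with earlier results of these data known, and 2 role groups were completed after the files were read. Named genes are those called in any contrast, the 5 highest and 5 lowest other glucose differences, the 3 smallest p-values per direction of each other contrast, the 5 largest SDs, genes whose probe sets differ by over 0.3, and called genes of the pathway lists. Rnf157, Trim21, Trim43a and single values outside this rule were named after they were seen. The fits per probe set and with the fluidics protocol as a block were added after the data were seen.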

Additional observations from a re-analysis of the deposited data

Results flagged for a closer look

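In each of 76 groups (38 named genes at 2 glucose levels, 10 arrays each) the lowest or highest array was compared with its nearest neighbour. Chance flags about 1 in 20 independent groups that were not chosen by their values. That rate is no base here, because these genes were named partly by their values and share the same arrays. In 11 groups an array had a gap that exceeded Dixon's critical value. Of these 11 arrays, 7 were the array of 5.5 mM with 10 µM amylin for 24 h and 3 the array of 22.7 mM with 1 µM for 12 h, the 2 without a scanner description.

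On the array of 5.5 mM with 10 µM amylin for 24 h, Rnf128 was at 8.28 (next value 9.42), Rnf11 at 9.39 (10.16), Rnf6 at 7.88 (8.42), Rnf167 at 9.53 (9.92) and Trim41 at 7.60 (7.95). Trim17 at 8.38 (7.63) and Rnf166 at 8.90 (8.43) were above the rest. On the array of 22.7 mM with 1 µM for 12 h, Trim59 was at 6.53 (7.24), Trim41 at 7.38 (7.92) and Rnf113a1 at 8.37 (8.02). The remaining one was Rnf128 at 10.00 in untreated cells at 22.7 mM (9.67). The part of the raised fibroblast, immune and endothelial, and acinar marker sums and of the raised array medians of these 2 arrays in the stray values was not tested.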

How the results depend on the processing

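Each array stood for 1 condition, so leaving out either array of a pair gives nearly the same fit, and such fits are counted once per pair. The count of called Trim and Rnf genes by glucose, 4 of 69, was 3 to 5 without a filter, with the lowest 60% left out, with arrays centred on their medians, with the mean of all probe sets, under other variance models, in an additive model and in the 18 treated arrays. The genes tested numbered 95 without a filter, 50 with the lowest 60% left out and 72 with the mean of all probe sets. The genes called also changed. With centred arrays they were Rnf4, Trim35 and Trim8, and with the mean of all probe sets Rnf130, Rnf14, Rnf146 and Trim35. The main fit called 408 of all 7436 genes. The count of called Trim and Rnf genes was 7 after quantile normalization (438 of all 7436 genes called) and 10 with scan day as a block (1090 of 7436). The fit with scan day had 17 arrays, since the single day 1 array was left out. Without the 2 arrays lacking a scanner description the count was 9 (743 of 7436), and with the fluidics protocol as a block 7 (625 of 7436). With the actin covariate the count was 0, and none of all genes passed. The causes were not tested. Left out in turn, the arrays gave 2 to 7. The count between 12 and 2 h, 0, became 1 with the mean of probe sets, in an additive model and in the treated arrays, and 2 with scan day, without the 2 arrays and with the fluidics block (0 to 2 with an array left out). Between 24 and 2 h it became 1 without the 2 arrays (0 to 1 with an array left out). The other 4 counts stayed at 0 in every fit made. The glucose comparison was paired on amylin condition, since the labels carry no replicate numbers that link arrays; with no replicate block, that is without this pairing, 5 genes were called.

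Rnf7 lost its call in 12 of 24 alternatives, Rnf130 in 9, Rnf4 in 2 (-0.29 with the mean of its probe sets, adjusted p = 0.0619, and with the actin covariate) and Trim35 in 1 of 23. Small differences changed sign. By glucose, with the mean of all probe sets Rnf114 gave -0.0876, Rnf121 -0.137, Rnf187 -0.00358, Trim37 -0.0507 and Trim8 -0.0219. With the actin covariate Rnf121 gave -0.113, Rnf167 0.0468, Rnf227 0.231 and Trim59 0.0273. Rnf114 gave -0.00508 after quantile normalization, -0.014 without the 2 arrays and -0.0106 with the fluidics block. Rnf227 gave 0.0239 with centred arrays, 0.0534 in the treated arrays, 0.0887 with scan day and 0.0327 without the 2 arrays, and Rnf13 gave 0.000526 with centred arrays. With an array left out, Rnf114 ran from -0.0119 to 0.0546, Rnf121 from -0.0145 to 0.0461, Rnf13 from -0.0569 to 0.0124 and Rnf227 from -0.0654 to 0.0747. Rnf187 gave 0.0247 between 12 and 2 h with scan day, and Rnf128 0.0283 between 24 and 2 h with the fluidics block. The interaction could not be fitted without either untreated array.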
